A study of Arabidopsis thaliana with 18 samples.

Results

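The genes described here had higher RNA levels in wild-type Arabidopsis treated with phytoprostane A1 (PPA1) and no such increase in a mutant of 3 transcription factors, TGA2, TGA5 and TGA6. They were chosen from the measured values on an array with 1 intensity per probe set. A probe set is a group of probes for the RNA of 1 gene or, for some sets, of several genes. With log2 intensities and values under 1 set to 1, a member had a PPA1 mean in wild type at least 1 above control, the lowest PPA1 array above the highest control array, and a PPA1 mean of at least 6.64. In the mutant, its PPA1 mean exceeded its control mean by at most 0.3, which is a 1.23-fold difference. Of 22746 probe sets that are not array controls, 72 met these 4 criteria, and 7 that belong to genes set aside by name were left out. Genes with symbols beginning UGT, CYP, WRKY or MYB were also to be left out, but none of the 72 had such a symbol. AT5G08250, a cytochrome P450, is named only by its locus in the annotation used and therefore stayed in. The 65 members hold 26 probe sets with 1 annotated gene, 1 with several genes and 38 that the annotation used here does not list. All 65 passed the filter on dim signals, and all 65 passed it also without the Col-0 PPA1 arrays. Since the values in control and with PPA1 chose the members, these are given as a description with no test. The independent measurement is the set of 6 arrays from plants treated with 12-oxo-phytodienoic acid (OPDA), which the choice did not use.

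TGA factors are basic leucine zipper proteins that bind DNA at TGACG motifs. TGA2, TGA5 and TGA6 act redundantly and are known for salicylic acid-dependent defence, together with the coactivator NPR1, and for the induction of genes that detoxify reactive compounds, together with the GRAS protein SCL14. PPA1 and OPDA are cyclopentenones, lipids with a reactive ring that come from α-linolenic acid. Phytoprostanes form without enzymes when membranes are oxidised, whereas OPDA is made enzymatically in plastids and is the precursor of jasmonic acid.

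RNA came from Col-0 (wild type) and from the triple mutant tga2-5-6 after 4 h with 75 µM PPA1, 75 µM OPDA or 0.5% methanol in water (control). Each of the 6 groups of genotype and treatment had 3 arrays, described in the labels as independent replicates. The labels give neither the organ sampled nor the plants' age, growth conditions or mutant alleles, and the genotype could not be checked, since none of the 3 mutated genes is assigned a probe set in the annotation used. In bulk RNA of this kind, fewer cells of a type and less RNA per cell cannot be told apart.

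Median intensity was 159 to 185 per array. Arrays of one group correlated at 0.900 to 0.935 (log2 values), arrays of different groups at 0.869 to 0.926. The actin 3'/5' control ratio was 34.4 ± 11.7 (SD, n = 3) in Col-0 control and 48.3 ± 16.8 in tga2-5-6 control. It was 28.7 ± 3.21 and 29.4 ± 3.47 with PPA1, and 28.1 ± 3.22 and 30.4 ± 4.60 with OPDA. The GAPDH ratio in Col-0 was 1.26 ± 0.107 in control, 1.14 ± 0.394 with PPA1 and 1.47 ± 0.461 with OPDA. In tga2-5-6 it was 1.55 ± 0.471, 0.953 ± 0.0721 and 1.46 ± 0.250. In both genotypes the GAPDH and actin ratios thus had lower means with PPA1, the treatment used to choose the members, than in control. The drop was larger in the mutant. The actin ratio was at least 24.9 on every array. The part of RNA quality in the results was not tested. Of 12 root genes 2 had a named probe set, and of 12 photosynthesis genes none had. These 2 root genes, the root-hair expansins EXPA7 and EXPA18, averaged 303 and 483 in Col-0 control, 60.5 and 123 with PPA1, and 86.6 and 98.6 with OPDA. In tga2-5-6 they averaged 242 and 542, 89.8 and 134, and 115 and 107. Both were thus detected in every group and lower with either compound in both genotypes, and their part in the results below was not tested.

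Among the members, the PPA1 mean in Col-0 exceeded control by 1.00 to 4.67 (log2 differences, median 1.26), and 8 of 65 were at least 4-fold higher. The 4-fold count has no share of all probe sets beside it, so it does not show whether 8 is many or few. By the choice, all 65 were at least 2-fold higher without overlap and 0 lower, against 3.84% and 2.84% of all probe sets. In tga2-5-6 the same difference ran from -3.79 to 0.28 with a median of -0.13, and the PPA1 mean lay below the control mean in 43 members, against 61.5% of all probe sets, a share near that of the members. Over all 21869 probe sets that passed the filter, the median PPA1 difference was -0.05 in Col-0 and -0.13 in tga2-5-6. PPA1 and control arrays of the mutant overlapped in 59 members. The choice limits the mutant's PPA1 mean and so leaves little room for PPA1 arrays above all controls. No share of all probe sets is given for this overlap. In 3 members the mutant's PPA1 arrays were lower without overlap and at least 2-fold, against 5.03% of all probe sets. In 6 members, these 3 included, all PPA1 arrays of the mutant lay below its controls, among them AT4G17280, AT5G08250 and AT5G51500. That is 9.23% of members, against 16.2% of all probe sets. In 36 members, 15 of them named, the 3 Col-0 PPA1 arrays were above all 15 other arrays, OPDA arrays included, against 1.14% of all probe sets. The choice fixes much of this count, since it requires lower Col-0 controls and limits the mutant's PPA1 mean. Replicate 3 of Col-0 PPA1 was the highest of its group in 31 members (47.7%, against 32.5% of all probe sets), and replicate 1 the lowest in 30 (46.2%, against 32.0%). Without replicate 3 of Col-0 PPA1, 52 of the 65 would still have been chosen.

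The limits of the choice fall within a continuous range. With the other criteria met, the probe set 250385_at was just inside the limit for the PPA1 difference at 1.00 and AT5G10820 just outside at 0.99. Examples outside a limit were taken only from probe sets with 1 annotated gene, so others could lie closer to it. For the PPA1 level, 253997_at stood at 6.64 and AT1G05450 at 6.59. For the difference in the mutant, 258094_at stood at 0.28 and AT3G16330 at 0.31. The gap between the lowest PPA1 and the highest control array was 0.05 in AT2G40200 and -0.08 in AT2G17110. There were 402 probe sets that met the 3 criteria in Col-0 but exceeded 0.3 in the mutant.

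**Figure D1:**
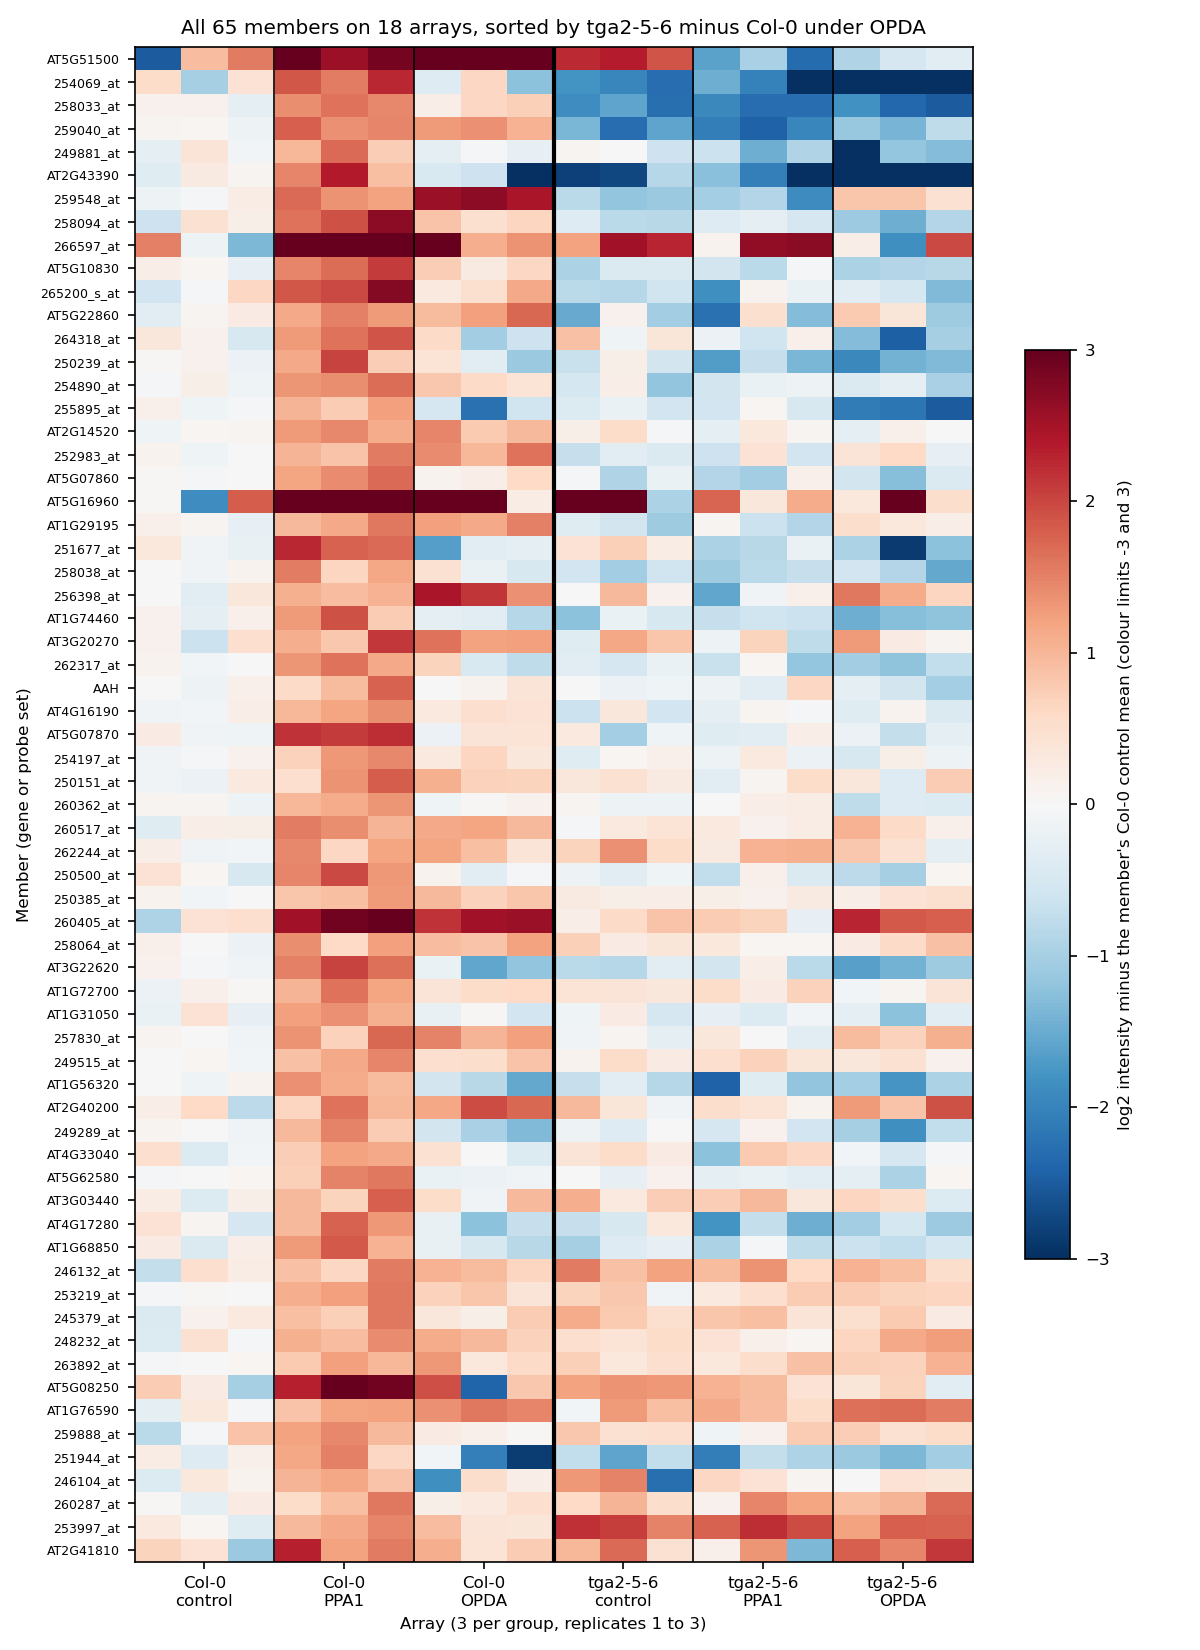
Each line is 1 of the 65 members and each column 1 of the 18 arrays; colour is the log2 intensity minus that member's mean in Col-0 control, with members sorted by the difference between tga2-5-6 and Col-0 under OPDA. The Col-0 PPA1 columns are red throughout because of the choice of members, while the OPDA columns, which played no part in it, differ from member to member.

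The named members are described by what their products are known to do, a grouping made after the names were known. The first act on or carry lipids and small molecules. AT3G22620 encodes a lipid transfer protein. Its intensities were 1129.7, 1001 and 957 in Col-0 control and 2949, 4213 and 3232 with PPA1, and in tga2-5-6 589, 571 and 816 in control and 700.1, 1185 and 589 with PPA1. With OPDA they were 891, 351 and 451 in Col-0 and 332, 385 and 488 in tga2-5-6. The Col-0 PPA1 arrays thus stood alone, and in both genotypes every OPDA array lay below every control array. AT5G10830, a predicted methyltransferase, had 524, 477 and 389 in Col-0 control, 1276, 1475 and 1979 with PPA1 and 771, 557 and 708 with OPDA. In tga2-5-6 it had 238, 341 and 339 in control, 316, 262 and 449.6 with PPA1 and 237, 248 and 258 with OPDA. All mutant controls were below all Col-0 controls, and neither compound brought a mutant array to the lowest OPDA array of Col-0.

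AT5G07860 and AT5G07870 are neighbouring genes for acyltransferases of the BAHD type, with no other protein-coding gene between them, and they were the only pair of adjacent genes among the 26. AT5G07860 measured 400.4, 381 and 385 in Col-0 control, 885, 1033 and 1269 with PPA1 and 416, 446 and 592 with OPDA. Its mutant values were 379.7, 207 and 339 in control, 212, 187 and 429 with PPA1 and 266, 160.5 and 288 with OPDA. AT5G07870 measured 208, 164 and 160.0 in control, 791, 751 and 820.2 with PPA1 and 156, 229 and 235 with OPDA in Col-0. In tga2-5-6 it measured 214, 86.9 and 162 in control, 138, 138 and 203 with PPA1 and 155, 108 and 143 with OPDA. Both neighbours were thus well above all other arrays only in Col-0 with PPA1, with log2 differences from control of 1.43 and 2.16. Their probe sets could share signal if the sequences are alike, which was not tested.

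AT1G74460, a lipase or esterase of the GDSL type, had 511, 390.1 and 523 in Col-0 control, 1138, 1784 and 802 with PPA1 and 393, 375 and 261 with OPDA. The mutant had 200.4, 409.8 and 336 in control, 293, 311 and 301 with PPA1 and 171, 195 and 205 with OPDA. Its spread in Col-0 PPA1 was wide, yet the lowest of these arrays was above every other array. AAH, allantoate amidohydrolase, releases ammonia in the breakdown of purines. It stood at 198, 178 and 219 in Col-0 control, 292, 382 and 677 with PPA1 and 195, 212 and 258 with OPDA, against 195, 176 and 179.8 in control, 178, 158 and 304 with PPA1 and 161, 136 and 97.3 with OPDA in tga2-5-6. Here replicate 3 was the highest with PPA1 in both genotypes, and that array of the mutant reached into the range of Col-0 PPA1.

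Several members belong to redox enzyme families. AT1G68850, a peroxidase, measured 213, 132 and 204 in Col-0 control, 434, 641 and 372 with PPA1 and 154, 129 and 101 with OPDA. In the mutant it measured 90.3, 137 and 152 in control, 92.8, 173 and 105 with PPA1 and 115, 108 and 124 with OPDA, all below the lowest Col-0 PPA1 array. AT4G17280 encodes a membrane protein with a cytochrome b561 domain. It had 196, 155 and 102 in Col-0 control, 287, 496 and 359.9 with PPA1 and 125, 61.9 and 90.6 with OPDA, and in tga2-5-6 90.5, 105 and 180.5 in control, 42.4, 88.3 and 52.8 with PPA1 and 70.6, 101 and 68.3 with OPDA. With PPA1, then, all Col-0 arrays were above their controls and all mutant arrays below theirs.

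AT5G16960 lies directly beside AER, the gene of an alkenal reductase, an enzyme that reduces reactive unsaturated carbonyls. It belongs to the same family. Its intensities were 5.62, 1.52 and 19.5 in Col-0 control and 104, 106 and 249 with PPA1. The corresponding mutant values were 54.6, 71.8 and 2.85 in control and 18.5, 6.98 and 11.9 with PPA1. With OPDA they were 64.6, 49.9 and 6.42 in Col-0 and 6.86, 51.6 and 7.90 in tga2-5-6. The gene was dim and scattered outside Col-0 PPA1, with some arrays in 5 of the 6 groups below 16. AER itself, set aside by name, averaged 1063 ± 306 (SD, n = 3) in Col-0 control, 4770.0 ± 490.4 with PPA1, and 455 ± 43.7 and 405 ± 40.3 in tga2-5-6. AT5G08250, a cytochrome P450, averaged 26.8 ± 14.2 in Col-0 control, 164 ± 39.0 with PPA1, 58.3 ± 2.69 in tga2-5-6 control and 42.4 ± 8.94 with PPA1. AT4G33040, a glutaredoxin, averaged 104 ± 33.7, 206 ± 33.3, 132 ± 14.0 and 123 ± 70.3 in these 4 groups.

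Other members take part in protein turnover and transport. AT4G16190, a papain-type cysteine protease, was the brightest named member. It measured 2016, 2057 and 2507 in Col-0 control, 4382, 4919.8 and 5709 with PPA1 and 2663, 3111 and 2929 with OPDA. In tga2-5-6 it measured 1401, 2751 and 1460.0 in control, 1799, 2319 and 2141 with PPA1 and 1703, 2352 and 1610.1 with OPDA. Its OPDA arrays lay above the controls in Col-0 and among them in the mutant. AT5G22860, a serine carboxypeptidase-like protein, had 84.7, 112 and 127 in Col-0 control, 233, 304 and 258 with PPA1 and 207, 251 and 351 with OPDA, so that the arrays of both compounds overlapped. In the mutant it had 37.1, 117 and 51.5 in control, 22.5, 149 and 43.2 with PPA1 and 184, 138 and 50.9 with OPDA, with groups that overlapped.

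AT1G72700 encodes a P-type ATPase of the family that flips phospholipids across membranes. Its values were 243, 304 and 282 in Col-0 control, 556, 847 and 628 with PPA1 and 361, 406 and 418 with OPDA. In tga2-5-6 they were 365, 358 and 349 in control, 402, 326 and 445 with PPA1 and 261, 292 and 359.8 with OPDA. The mutant's controls were above those of Col-0. AT2G14520, a protein with a CBS domain, had 54.5, 62.5 and 62.8 in Col-0 control, 145, 162 and 129 with PPA1 and 165, 103 and 118 with OPDA, and in the mutant 67.4, 87.7 and 57.8 in control, 49.9, 74.4 and 63.7 with PPA1 and 49.6, 66.4 and 59.9 with OPDA. Both compounds therefore separated treated from control arrays in Col-0 and neither did in tga2-5-6.

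A pair of members have products that act on or in the cell wall. AT5G51500, a pectin methylesterase, measured 2.80, 30.0 and 46.2 in Col-0 control, 256, 93.8 and 116 with PPA1 and 176, 127 and 139.9 with OPDA. In tga2-5-6 the order was turned, at 74.3, 80.5 and 58.2 in control, 5.14, 8.05 and 3.18 with PPA1 and 8.46, 11.1 and 12.6 with OPDA. All 6 treated mutant arrays were below 16, the filter value, so the sizes of these differences are inexact. AT2G41810, a wall protein of the DUF642 family, had 135, 115 and 39.4 in Col-0 control, 425, 196 and 248 with PPA1 and 181, 112 and 144 with OPDA. Its mutant values were 168, 277 and 116 in control, 93.8, 212 and 33.1 with PPA1 and 295, 235 and 367 with OPDA, and under OPDA the mutant was the higher genotype.

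Of the remaining named members, 3 encode transcription regulators. The bHLH factor gene AT1G31050 averaged 159 ± 43.4 in Col-0 control and 365 ± 39.0 with PPA1, against 146 ± 38.5 and 132 ± 14.4 in tga2-5-6. For the bHLH factor gene AT2G40200 the averages were 73.1 ± 31.7, 149.9 ± 53.2, 94.2 ± 35.5 and 86.7 ± 12.5, and for the PLATZ zinc-finger gene AT1G76590 they were 73.5 ± 14.9, 155 ± 20.9, 126 ± 53.8 and 135 ± 26.6. In AT1G76590 the mutant's controls were spread so widely that their highest array was above all Col-0 PPA1 arrays.

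AT5G62580 and AT3G03440 encode proteins with ARM repeats, which bind other proteins. AT5G62580 stood at 350.5, 358 and 381 in Col-0 control, 594, 1019.8 and 1091 with PPA1 and 315, 321 and 337 with OPDA, and in tga2-5-6 at 364, 306 and 399 in control, 299, 314 and 290.2 with PPA1 and 295, 187 and 375 with OPDA. AT3G03440 averaged 51.4 ± 11.5 in Col-0 control and 118 ± 50.9 with PPA1, against 84.6 ± 22.9 and 82.5 ± 17.4 in tga2-5-6. The former was above all other arrays only in Col-0 with PPA1, while the latter was already higher in the mutant's controls than in those of Col-0. AT3G20270, a protein related to lipopolysaccharide-binding proteins, averaged 67.9 ± 25.6, 177 ± 90.9, 102 ± 48.1 and 65.9 ± 32.9 in the same 4 groups.

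No role is given here for AT1G56320, AT1G29195 and AT2G43390. AT1G56320 had 502, 459.7 and 541 in Col-0 control, 1292, 1089.7 and 969.6 with PPA1 and 343, 279 and 172 with OPDA, and in the mutant 308, 400.1 and 276 in control, 93.0, 388 and 219 with PPA1 and 247, 146 and 257 with OPDA. Its PPA1 arrays in Col-0 were the highest and its OPDA arrays in Col-0 lay below the controls. AT1G29195 averaged 133 ± 18.2 in Col-0 control and 315 ± 72.8 with PPA1, against 85.2 ± 20.0 and 98.6 ± 36.7 in tga2-5-6. AT2G43390 averaged 37.0 ± 7.90 and 119 ± 61.9 in Col-0 and had a mean below 16 in every mutant group.

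**Figure D2:**
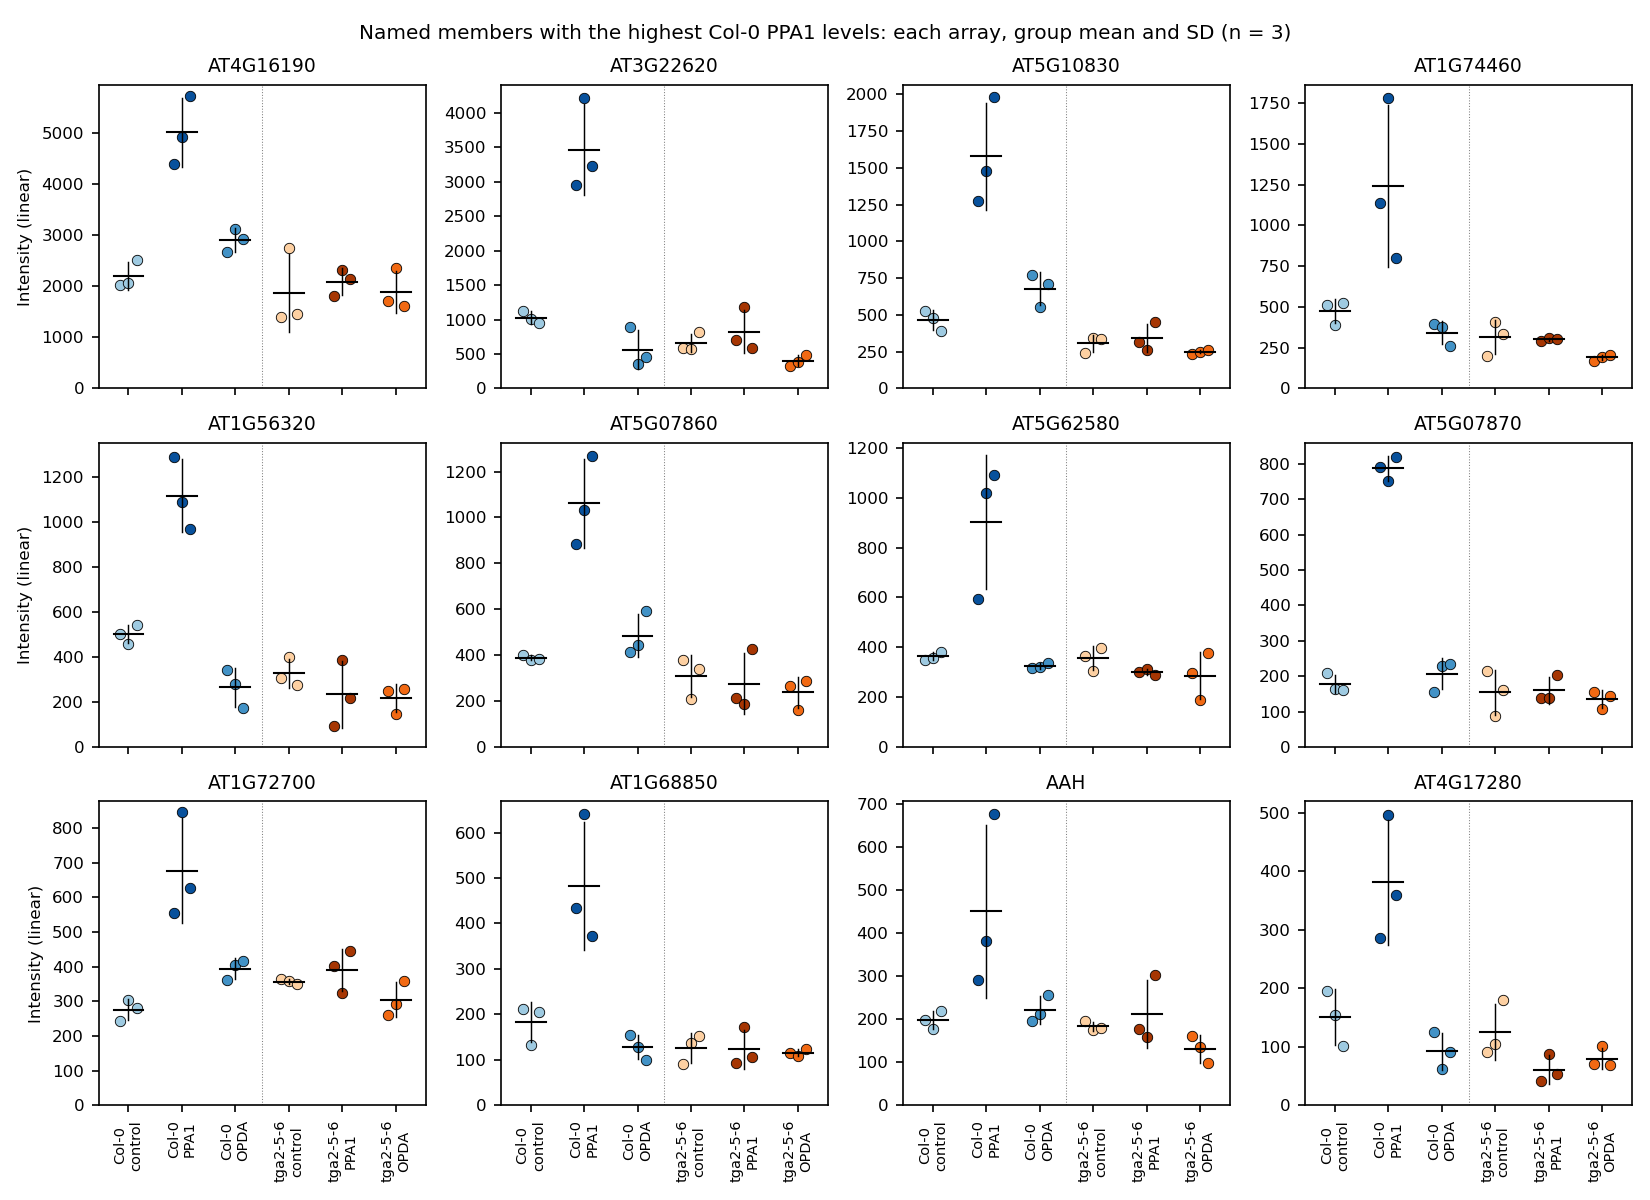
Intensity on a linear axis from 0 for the 12 named members with the highest Col-0 PPA1 means; points are the 3 arrays of each of the 6 groups, horizontal bars are means and vertical bars SD. In 11 of the 12 panels all Col-0 PPA1 points lie above all other points; in AAH a tga2-5-6 PPA1 array overlaps them.

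Among the 38 members with no listed gene, Col-0 PPA1 means ran from 101 to 11012 with a median of 371, and log2 differences from control from 1.00 to 3.70. A few bright or strongly differing ones were picked for description after their values were seen. The brightest, 254890_at, had 3913, 4476 and 3617 in Col-0 control and 9958, 10433 and 12644 with PPA1. The corresponding mutant values were 2766, 4605 and 1759 in control and 2712, 3458 and 3601 with PPA1. Probe set 258033_at had 516, 516 and 389 in control and 1237, 1456 and 1270.4 with PPA1 in Col-0, and 128, 156 and 97.9 in control and 124, 95.9 and 96.9 with PPA1 in the mutant. For 259040_at the Col-0 values were 1571, 1547 and 1344 in control and 5128, 3842 and 4120.5 with PPA1, and the mutant values 569.9, 303 and 499.6 in control and 352, 277 and 385 with PPA1. In these last 2 the mutant was far below Col-0 already in control, whereas the mutant's controls of 254890_at overlapped those of Col-0.

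Control levels of the members were compared between the genotypes as a description, since the choice favours low controls in Col-0 and high controls in the mutant. The mutant's control mean was lower in 34 members and higher in 31, against 45.2% and 54.8% of all probe sets, with a median log2 difference of -0.05 against 0.05 over all probe sets. In 6 members (9.23%) all mutant controls were below all Col-0 controls and at least 2-fold lower in mean, as they were in 1.39% of all probe sets. In 4 members (6.15%) they were higher by the same criterion, as in 3.22% of all probe sets. The 6 lower ones were 259040_at, 258033_at, 259548_at, 251944_at, 254069_at and AT2G43390, and the 4 higher ones AT5G08250, AT5G51500, 246132_at and 253997_at. The members thus began from unlike levels, some much lower in the mutant and some higher. With PPA1, 44 members were lower in tga2-5-6 by the same criterion and 0 were higher, against 3.60% and 2.41% of all probe sets, which follows from the choice of members.

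The OPDA arrays asked whether the members also differed between the genotypes under a compound that had not been used to choose them. Under OPDA the mean in tga2-5-6 was lower than in Col-0 in 53 of 65 members, against 49.6% of all probe sets, with a median log2 difference of -0.53 against 0.00 over all probe sets. In 15 members (23.1%) all 3 mutant arrays were below all 3 Col-0 arrays and at least 2-fold lower in mean, against 2.42% of all probe sets. Higher by this criterion were 2 members, AT2G41810 and 253997_at (3.08%, against 2.59% of all probe sets). The 5 named members that were lower were AT5G51500, AT5G10830, AT5G22860, AT2G14520 and AT5G07860. No p-value is attached to these counts, because the members are not independent of each other.

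In the limma fit to the 6 OPDA arrays, 1 member passed, AT5G51500 (adjusted p = 0.0271). It stood at 148 ± 25.2 (SD, n = 3) in Col-0 and 10.7 ± 2.11 in the mutant, lower in 3 of 3 arrays. The log2 difference was -3.79 ± 0.22 (SE). The call required an adjusted p under 0.05 and a 2-fold change, which 0.0366% of all probe sets passed as lower and 0.0137% as higher. No member passed as higher. The call of AT5G51500 was lost without any 1 of the 6 arrays, with adjusted p from 0.0693 to 0.159. At an unadjusted p under 0.05, 21 members were lower and 4 higher, against 4.53% and 5.60% of all probe sets. In the fit to all 18 arrays, which also takes its spread from the arrays that chose the members, 8 members were lower, against 0.402% of all probe sets. The named ones of these 8 were AT5G51500, AT5G10830 and AT2G14520. In the 6-array fit AT5G10830 differed by -1.44 ± 0.17 (SE; adjusted p = 0.0966) and AT2G14520 by -1.11 ± 0.24 (adjusted p = 0.216). AT5G07860 differed by -1.05 ± 0.29 (adjusted p = 0.329). For AT5G22860 the difference was -1.27 ± 0.53 (adjusted p = 0.517), with a 95% interval of -2.60 to 0.06. The members with the least difference included AT1G76590, at 0.16 (95% interval -0.18 to 0.51), and AT1G68850, at -0.13 (-0.63 to 0.38). For the dim genes AT5G08250 and AT5G16960 the intervals spanned several log2 units in width. The actin 3'/5' ratios of the 2 OPDA groups, given above, overlapped.

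**Figure D3:**
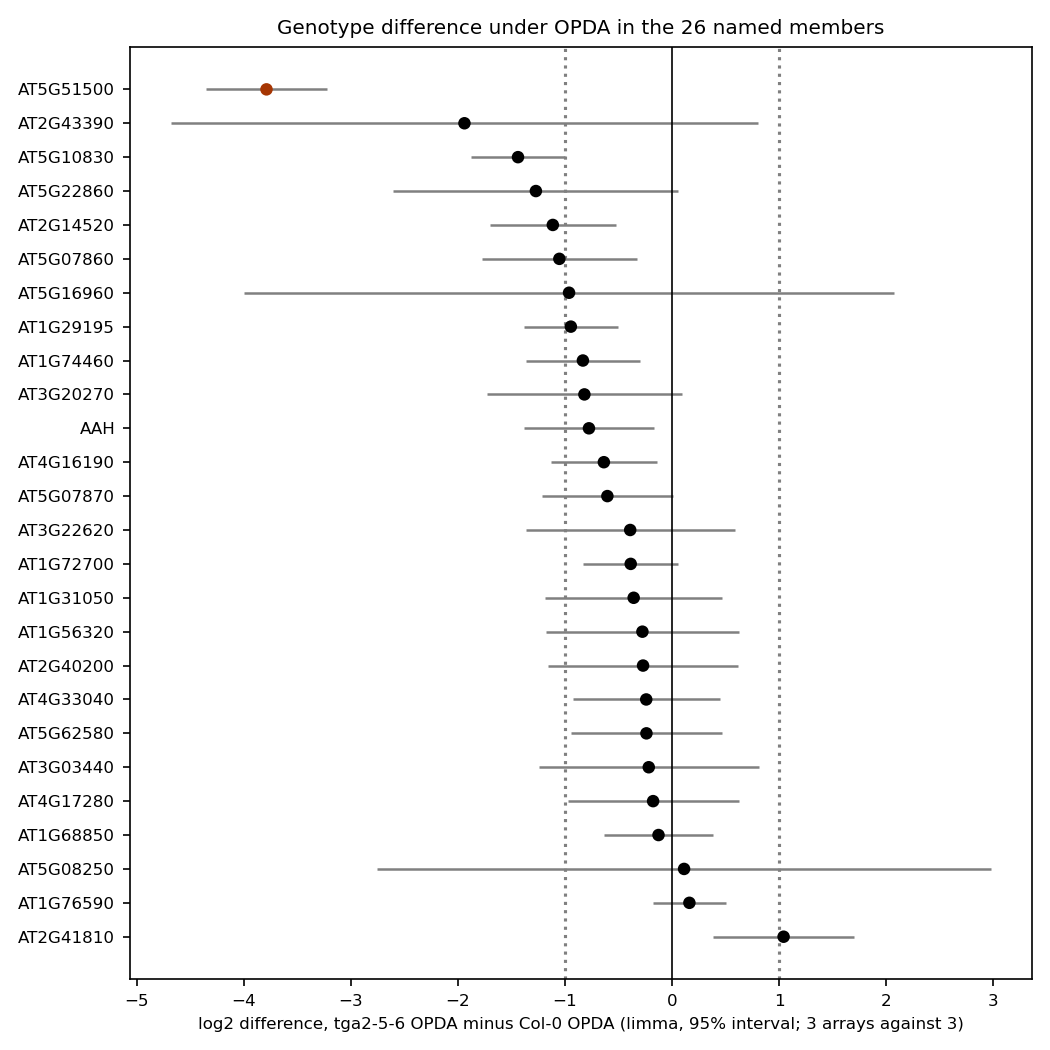
Log2 difference between tga2-5-6 and Col-0 under OPDA for each of the 26 named members, with 95% intervals of the limma fit to 3 arrays against 3; dotted lines mark 2-fold changes and the coloured point the member that passed. Of the 26 points 23 lie left of 0, and AT2G41810, AT1G76590 and AT5G08250 lie to the right.

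Probe sets without a listed gene made up 10 of the 15 members lower in the mutant under OPDA. Under OPDA 258033_at stood at 537, 718 and 776 in Col-0 and 134, 92.2 and 82.9 in tga2-5-6, and 259040_at at 3577, 3850.1 and 3064 in Col-0 and 678, 563 and 869.6 in tga2-5-6. Their log2 differences were -2.73 ± 0.26 (SE; adjusted p = 0.0678, limma) and -2.33 ± 0.21 (adjusted p = 0.0664). Neither passed, although every mutant array was below every Col-0 array in both. Of the 15 members, 13 had a lower mean in the mutant also in control, and in 4 of these the control groups did not overlap and were at least 2-fold apart. The matching shares among all probe sets lower under OPDA are not given, so these counts do not show whether this is many or few.

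The OPDA responses themselves share the control arrays with the choice of members and are therefore given as values only. In Col-0 14 of 65 members (21.5%) were higher with OPDA than in control, without overlap and at least 2-fold, against 4.67% of all probe sets. In tga2-5-6 3 members (4.62%) were, against 4.52%. Lower with OPDA by the same criterion were 2 members in Col-0 (3.08%, against 4.32%) and 10 in tga2-5-6 (15.4%, against 6.47%). In 2 members (3.08%, against 0.293%), AT5G51500 and 258094_at, all OPDA arrays were above the controls in Col-0 and below them in tga2-5-6. The 3 members higher with OPDA in both genotypes were 259548_at, 260405_at and AT1G29195. For 259548_at the OPDA values were 886, 944 and 804 in Col-0 and 260.3, 262 and 201 in the mutant, from controls of 132, 140.4 and 171 in the former and 84.1, 65.3 and 67.5 in the latter, while with PPA1 it averaged 395 ± 71.3 in Col-0 and 64.2 ± 21.3 in tga2-5-6. Probe set 260405_at averaged 44.4 ± 20.2 in Col-0 control, 347 ± 144 with PPA1 and 219.8 ± 32.7 with OPDA, against 59.9 ± 13.2, 55.7 ± 18.8 and 161 ± 32.1 in tga2-5-6. AT1G29195 reached 325 ± 44.2 with OPDA in Col-0 and 168 ± 19.8 in the mutant. That the mutant's PPA1 means exceeded control by at most 0.3 (log2) is fixed by the choice of members, so the contrast between the compounds in these 3 is a description.

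At the same dose and time in Col-0, 31 members (47.7%) were higher with PPA1 than with OPDA without overlap and at least 2-fold, against 3.77% of all probe sets. A single member, 259548_at, was lower (1.54%, against 3.92%). Having been chosen for PPA1, the members favour this direction. OPDA means were below control means in both genotypes in 19 members, against 45.7% of all probe sets. The 8 named ones were AT3G22620, AT1G74460, AT1G56320, AT5G62580, AT1G68850, AT4G17280, AT1G31050 and AT2G43390. The regulators AT2G40200 and AT1G76590 had higher means with OPDA than with PPA1 in Col-0, at 213 ± 57.6 and 201 ± 14.6, and in the mutant OPDA gave 180.3 ± 67.7 and 225 ± 11.5. The third regulator, AT1G31050, went the other way, with an OPDA mean of 132 ± 26.8 in Col-0, below its PPA1 mean, and of 106 ± 34.8 in the mutant.

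**Figure D4:**
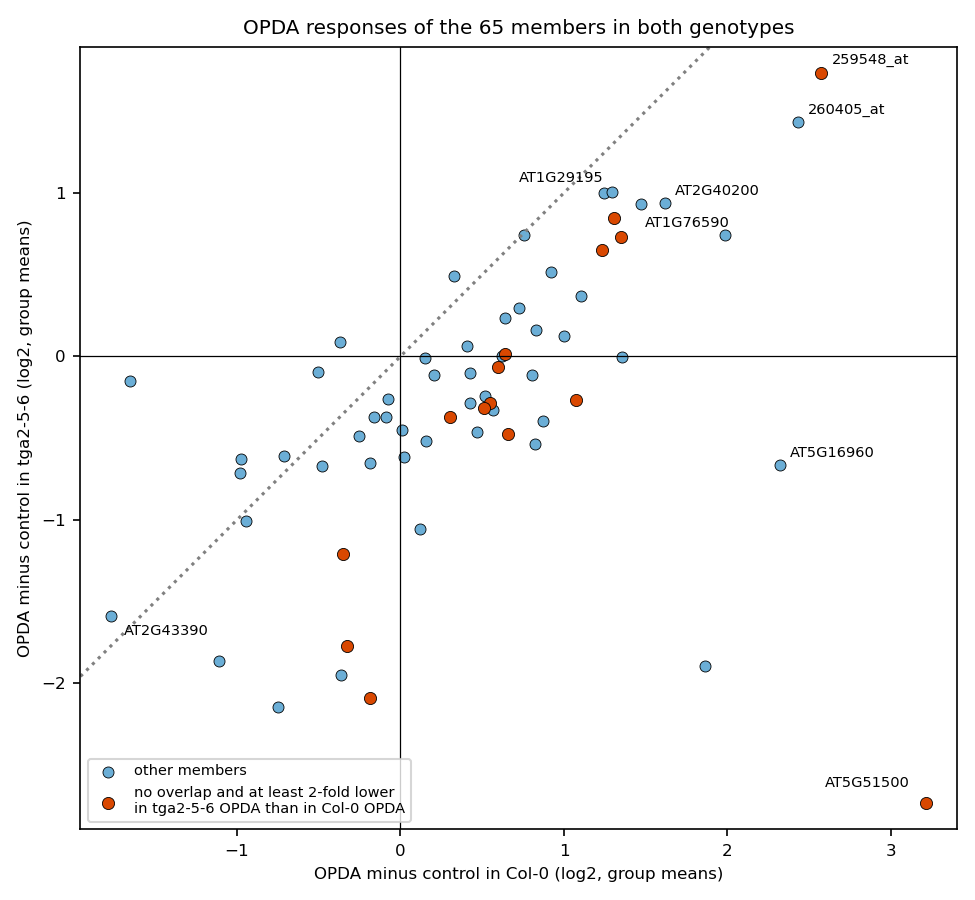
Each point is 1 of the 65 members, with its OPDA minus control difference in Col-0 on the horizontal and in tga2-5-6 on the vertical axis (log2, group means); the dotted line marks equal responses and orange the 15 members lower in tga2-5-6 under OPDA. AT5G51500 has a Col-0 difference of 3.22 and a mutant difference of -2.73, and 259548_at has 2.57 and 1.74; both axes rest on the control arrays that also chose the members.

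Other genes of detoxification and TGA signalling were taken from lists written from general knowledge. Under OPDA, 1 of 11 measured tau-class glutathione S-transferases was lower in the mutant and none higher in the limma fit to 6 arrays. That gene, GSTU25, which is set aside by name here, averaged 2968 in Col-0 and 64.1 in tga2-5-6 (log2 difference -5.54 ± 0.17, adjusted p = 0.00365, lower in 3 of 3 arrays). GSTU22 averaged 388 in Col-0 and 78.5 in tga2-5-6 and did not pass (log2 difference -2.29 ± 0.27, adjusted p = 0.0966), though it did in the fit to all 18 arrays (adjusted p = 0.00186). No gene passed among 2 phi-class transferases, 5 aldo-keto reductases, 2 MATE efflux carriers, 1 salicylic acid response gene and the 2 root genes, in either fit. At an unadjusted p under 0.05 there were 0, 1, 2, 1 and 0 such genes in these lists. The aldo-keto reductase among them was AT1G60730, at -1.08 ± 0.30 (log2 ± SE, unadjusted p = 0.0135, limma). The largest difference of each list was in GSTF4 at 0.44 ± 0.48, AT1G60750 at -2.16 ± 1.10, AT2G04070 at 1.47 ± 0.35, GRX480 at 1.40 ± 0.23 and EXPA7 at 0.46 ± 0.33 (log2 ± SE). The 2 MATE carriers and GRX480 thus had higher means in the mutant, opposite to most members. Listed oxophytodienoate reductases, ABC transporters and TGA factors with their partners had no named probe set.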

How the data were processed

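The deposited values are 1 linear intensity per probe set and array from 18 single-colour Affymetrix arrays, per the labels' protocols made from 1 µg of total RNA after amplification and biotin labelling. The submitters' processing notes name GCRMA. The values are not on a log scale, and their mean after trimming 2% at each end was 500.0 to 500.1 on every array, so the authors' final scaling differs from plain GCRMA output and the algorithm behind the intensities is not given in the sources used here. The number of arrays limits the precision.

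Values under 1 were set to 1 and log2 was taken. A probe set was kept if 3 or more arrays reached 16 (21869 probe sets). Genes came from the platform annotation, which gives 1 gene for 13513 probe sets, several for 503 and none for 8730. No genome build is named, so no position is given.

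Groups follow the labels. The comparison of genotypes under OPDA was fitted with limma 3.58.1 (R 4.3.3) to the 6 OPDA arrays, with Benjamini-Hochberg adjustment over all kept probe sets, and the code was tested on simulated data. A call needs an adjusted p-value under 0.05 and a 2-fold change. The second criterion, no overlap and 2-fold, carries no p-value. Alternatives were the fit to all 18 arrays, other floors, filters and normalizations, the replicate number as a block and each array left out. All 26 members with 1 gene are named, with values of every array for the 12 brightest and for others that the OPDA results turn on. AT5G16960 was added to these after its values were seen. Members and lists were chosen with earlier results of these data known. The labels call the replicates independent but do not say from which plants, so p-values measure the spread between these samples. Promoter motifs were not analysed here.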

Additional observations from a re-analysis of the deposited data

Results flagged for a closer look

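In 2 members the OPDA and control arrays moved in opposite directions in the 2 genotypes without overlap: every OPDA array was above every control array in Col-0 and below every control array in tga2-5-6. This is 3.08% of the members, against 0.293% of all probe sets. For AT5G51500 the log2 difference from control was 3.22 in Col-0 and -2.73 in the mutant, a gap of 5.95. Its mutant OPDA values and 1 Col-0 control value, 2.80, lay below the filter value of 16. For 258094_at, which has no listed gene, the differences were 0.66 and -0.48, each under 2-fold, with a gap of 1.14. Its margins were narrow. In Col-0 the lowest OPDA array was 1778 against a highest control of 1744. In the mutant the highest OPDA array was 691 against a lowest control of 721. Neither gap was tested, and both rest on the control arrays that also chose the members.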

How the results depend on the processing

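Under all alternatives tried, 14 to 19 members were lower in tga2-5-6 under OPDA without overlap and at least 2-fold (15 as reported), and 51 to 56 had a lower mean (53 as reported). Settings that change only the fit or the filter could not move these counts, since the members and their values stay the same. The share of all probe sets lower by the first criterion moved more, from 2.42% as reported to 1.27% with values under 16 set to 16, 1.25% with a filter of 64 and 3.48% to 4.81% with 1 array left out, where the members' counts were 14, 15 and 14 to 19. The number passing limma depended on the setting. Against 1 member and 11 probe sets as reported, there were 8 members and 172 probe sets with all 18 arrays in the fit, 4 and 38 with values under 16 set to 16, 7 and 105 with a filter of 64, and 2 and 18 after quantile normalization. Leaving out each OPDA array in turn gave 0 members every time and 0 to 6 probe sets. With the replicate block there were 0 members and 0 probe sets in the fit to 6 arrays, and 7 and 157 in the fit to 18. Both fits to 18 arrays also take their spread from the arrays that chose the members, so their member counts are not independent of the choice. Same-numbered samples did not deviate together (45 correlations from -0.05 to 0.07), and 15 of the 45 were the best match. Correlations between whole arrays cannot show a batch that acts on few genes, so whether samples share a batch was not tested. The cause of the changes between settings was not tested either.

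AT5G08250 differed by 0.11 as reported, by -0.49 with values under 16 set to 16, and by -1.15 to 1.02 with 1 array left out. With 1 array left out, the difference also changed sign in AT4G17280 (-0.44 to 0.070), AT5G62580 (-0.47 to 0.037), AT3G03440 (-0.51 to 0.12) and AT1G68850 (-0.29 to 0.020). The choice of members gave 43 in place of 65 when the mutant's PPA1 mean could not exceed its control mean at all, 96 when it could exceed it by 0.5 (log2), and 63 to 85 with 1 array left out, of which 52 to 63 were among the 65. Signals near or below 16 limit what can be said of the dim members.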
